A study of Mus musculus with 15 samples.

Results

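The miRNAs described here are those of the Meg3 and Rtl1 stretch of the imprinted Dlk1-Dio3 region. They were chosen by name, as every mature miRNA name with one of 16 hairpin numbers, in any letter, copy or arm. The choice was made with earlier results of these data known. The rule found 33 of the 1558 mature names with a read in the series, and these names held 542083 reads in all. Small RNA was sequenced with AQ-seq, a procedure with randomized adapters meant to lower ligation bias, on the total RNA of 12 mouse organs and 3 stages of whole embryo. The RNA came from a commercial panel. There was 1 library per tissue, and the labels give no strain, age of the organs, treatment or number of animals. Brain, spinal cord and eye were grouped as nervous tissue (3 libraries). Whole embryos of 11, 15 and 17 days formed the embryo class (3 libraries). Heart, kidney, liver, lung, salivary gland, smooth muscle, spleen, stomach and testis formed the class called other adult here (9 libraries). The 17-day embryo is so named in its title, while another field of its label gives 15 days; the title was followed. Within a class the units are different organs or stages, so p-values measure the spread between them and not between animals.

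The Dlk1-Dio3 region is an imprinted stretch in which protein-coding genes such as Dlk1 and Rtl1 are expressed from the paternal chromosome and the noncoding RNAs Meg3, Rian and Mirg from the maternal one. Many miRNA hairpins are cut from the maternal noncoding RNAs, and they are known for high levels in brain, placenta and embryo and low levels in most adult organs. Rtl1 is a retrotransposon-derived gene needed in the placenta, and miRNAs from the opposite strand pair with its transcript along their whole length and can direct its cleavage. Each hairpin can be cut into mature strands of 2 arms, called 5p and 3p, and the seed, bases 2 to 8 of a mature strand, leads target pairing.

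The 17 hairpin genes of these names lie in 54.6 kb of chromosome 12 in GRCm38, at chr12:109563692-109618336, 16 on the plus strand and 1 on the minus strand. In the GENCODE M21 annotation Mir770 (chr12:109563692-109563785) lies in an exon of Meg3. Mir673, Mir493, Mir337, Mir540, Mir665 and both copies of Mir3070 overlap no annotated gene and lie between Meg3 and Rtl1. Mir431 (chr12:109590447-109590537), Mir433, Mir127 (chr12:109592846-109592915), Mir434 (chr12:109594506-109594599) and Mir136 lie opposite the coding exon of Rtl1. Mir3071 lies on the strand of Rtl1, opposite Mir136. Mir341, Mir1188 and Mir370 (chr12:109618258-109618336) lie in introns of Rian. All 33 names matched a mature sequence of RefSeq (GRCm38.p6). For 10 of them, both arms of mir-431, mir-433, mir-127, mir-434 and mir-136, the reverse complement was found without a mismatch in the annotated Rtl1 transcript. The mature strands of these 5 hairpins are shown because they are the most abundant names or, for mir-431, differ in arm usage between tissues. The seed is in capitals.
miR-127-5p: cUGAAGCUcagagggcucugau
miR-127-3p: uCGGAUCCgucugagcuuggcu
miR-434-5p: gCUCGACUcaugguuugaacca
miR-434-3p: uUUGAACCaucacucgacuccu
miR-136-5p: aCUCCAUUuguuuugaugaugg
miR-136-3p: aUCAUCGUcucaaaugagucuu
miR-431-5p: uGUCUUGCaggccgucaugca
miR-431-3p: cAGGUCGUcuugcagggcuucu
miR-433-5p: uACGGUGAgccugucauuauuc
miR-433-3p: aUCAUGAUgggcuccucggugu

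The strands below come from outside Rtl1 and are shown because their level or arm usage differed between embryo and nervous libraries, or, for mir-770, went the other way without passing the test.
miR-770-5p: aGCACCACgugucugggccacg
miR-770-3p: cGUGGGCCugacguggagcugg
miR-673-5p: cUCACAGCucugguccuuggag
miR-493-5p: uUGUACAUgguaggcuuuc
miR-493-3p: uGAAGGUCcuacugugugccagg
miR-665-3p: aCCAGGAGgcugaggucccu
miR-370-5p: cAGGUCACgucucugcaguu
miR-370-3p: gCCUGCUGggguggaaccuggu
The seeds of the names were nearly all different. Only miR-3070-3p and miR-3070-2-3p shared one, GGUGCUA, so most names of the stretch do not form a seed family. No name shared 16 bases with another, but the arms of mir-136 and mir-3071 are complementary over 16 bases or more. Those of mir-337 and miR-3544, a name outside the rule, are complementary too. Whether the counting used strand is not given in the sources used here, and without strand the reads of such pairs cannot be told apart. The counts of the mir-136 pair differed widely. miR-136-3p held 37402 reads in all beside 19 of miR-3071-5p, and miR-136-5p held 33208 beside 3 of miR-3071-3p. The use of strand was not tested.

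Totals lay between 148052 reads (testis) and 3161463 (brain). CPM stands for counts scaled to a common library size. A count of 3 was thus worth 20.3 unscaled CPM in testis and 0.949 in brain. Lists of miRNAs known for an organ led in some libraries, such as hepatocyte miRNAs in liver (32.1% of reads), muscle miRNAs in heart (30.2%) and leukocyte miRNAs in spleen (26.0%). In others they did not: the library labelled smooth muscle held 27.9% of its reads in gut and kidney epithelium miRNAs and 15.7% in smooth muscle miRNAs. Stomach was led by smooth muscle miRNAs (26.8%), kidney and lung by erythroid miRNAs (5.53% and 12.7%), and salivary gland by smooth muscle (4.46%) and leukocyte (4.31%) miRNAs. All 7 names of a neuronal marker list, which includes miR-124-3p and miR-9-5p, were read in every library. They took 12.3% to 23.8% of reads in nervous, 4.70% to 8.46% in embryo and 0.0342% to 0.369% in other adult libraries. A list of 4 mesenchymal names took 6.29% to 8.21% in embryos, 0.0247% to 0.434% in nervous and 0.292% to 0.831% in other adult libraries. These lists move with the classes compared below, and their part in the results was not tested. In whole organs and embryos, fewer cells that express a miRNA and less of it per cell cannot be told apart.

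The names of the stretch together took a large share of reads in embryos, brain and spinal cord, a smaller one in eye and the smallest in the other adult tissues. The share was 6.60% in the 17-day, 4.52% in the 15-day and 2.97% in the 11-day embryo. It was 4.06% in spinal cord, 3.75% in brain and 0.533% in eye. Eye thus had the lowest share of the nervous libraries, although its neuronal marker share was 12.3%. Among the other adult tissues stomach had the highest share of the stretch, 0.312%, followed by testis (0.112%), salivary gland (0.111%) and smooth muscle (0.103%). Heart (0.0554%), lung (0.0369%), kidney (0.0286%), spleen (0.0279%) and liver (0.0240%) had the lowest shares. Neither the nervous nor the embryo libraries overlapped with the other adult ones. Exact 95% intervals were narrow beside these differences, such as 0.300 to 0.323% in stomach and 0.0957 to 0.131% in testis, and cover counting error only.

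**Figure D1:**
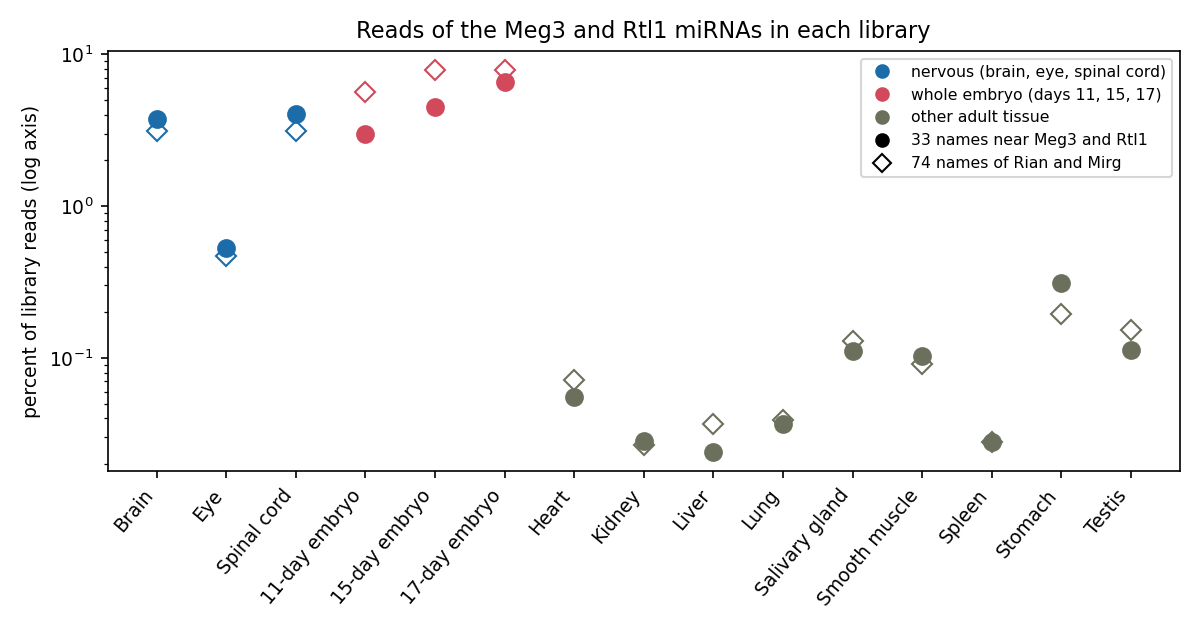
Percent of library reads (log axis) held by the 33 names of the Meg3 and Rtl1 stretch (filled circles) and by 74 names of the neighbouring Rian and Mirg hairpins (open diamonds) in each of 15 libraries, coloured by class. The 3 embryo libraries lie between 2.97% and 6.60%, and all 9 other adult tissues lie at or below 0.312%.

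The later hairpins of the region, from Rian and Mirg (74 names), had shares of similar size. The ratio of reads of the stretch to reads of the later hairpins was 1.20 in brain, 1.29 in spinal cord and 1.13 in eye. In the 11-, 15- and 17-day embryos it was 0.524, 0.573 and 0.839. All 3 embryo ratios lay below all 3 nervous ratios. Other adult tissues ranged from 0.648 in liver to 1.61 in stomach.

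Of the 33 names, 27 passed the filter on low counts and were tested for abundance across 693 names with the quasi-likelihood test of edgeR. The filter favours names that are high in at least 1 class, so the counts that follow are descriptions. Against the other adult tissues, 25 of the 27 tested names were higher in nervous tissue and 0 lower, beside 28.4% higher and 12.6% lower among all tested names. Their median log2 fold change was 4.10, beside -0.21 over all tested names. In embryos 27 of 27 tested names were higher and 0 lower, beside 27.0% higher and 17.2% lower among all tested names, with a median of 5.33 beside 0.10. Both comparisons share the other adult libraries. Of the later Rian and Mirg names, 62 of 66 tested were higher in nervous tissue and 66 of 66 in embryos. In 21 of the 27 tested names every nervous library lay above every other adult library, and in 27 of 27 every embryo library did. How many of all tested names separate in this way was not counted, so these counts have no background.

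Levels below are CPM on the TMM scale of edgeR, which assumes that most miRNAs do not differ between libraries. The TMM factors of the embryos, 1.92 to 2.25, divide their values. With library totals in place of TMM, the median of all tested names moved by 0.47 (nervous minus other adult), 1.28 (embryo minus other adult) and 0.89 (embryo minus nervous) on the log2 scale. The split of calls over all names then moved from 197 higher and 87 lower to 226 and 56, from 187 and 119 to 287 and 42, and from 81 and 99 to 115 and 43 in the same order.

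**Figure D2:**
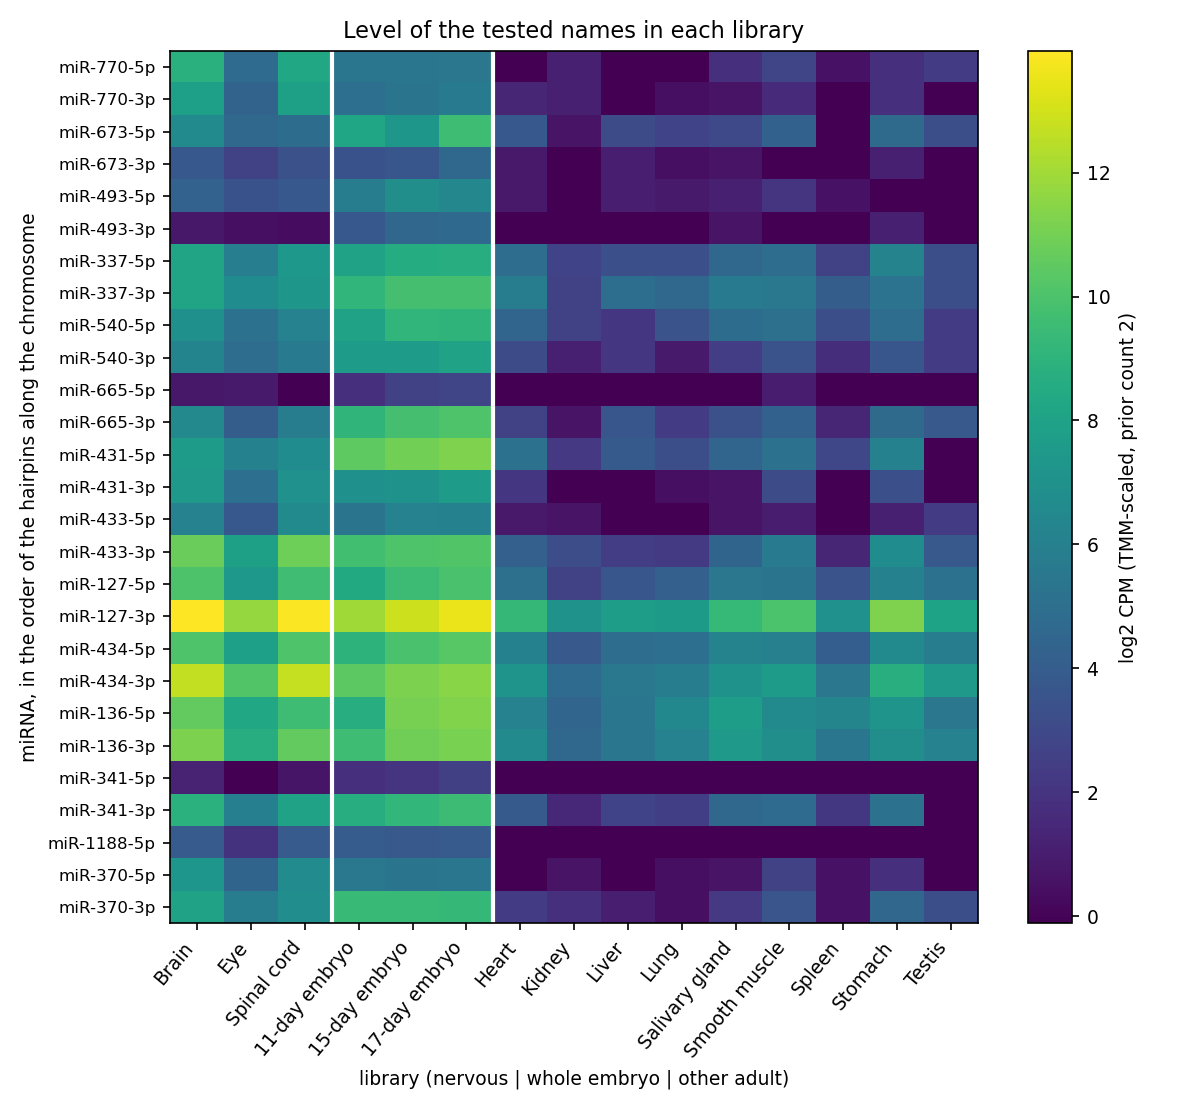
Level (log2 CPM, TMM-scaled, prior count of 2) of the 27 tested names (rows, in the order of the hairpins along the chromosome) in 15 libraries (columns; white lines separate nervous, embryo and other adult libraries). miR-127-3p and miR-434-3p are the brightest rows, and the other adult columns are darker than the embryo columns in every row.

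The hairpins opposite Rtl1 gave most reads of the stretch. mir-127 held more reads than any other hairpin of the stretch in each of the 15 libraries, from 33.1% to 66.7% of the reads of the 33 names. mir-434 held 13.1% to 31.9% and mir-136 6.99% to 32.9%, and mir-136 exceeded mir-434 in the 15- and 17-day embryos, kidney, liver, lung, salivary gland and spleen. mir-433 exceeded mir-431 in brain (5.37% against 1.12%), spinal cord and eye, and mir-431 exceeded mir-433 in all 3 embryos. miR-127-3p, the most abundant name, had 15991 CPM in brain, 15250.4 in spinal cord and 3402 in eye. It had 4036, 7510.3 and 11995 CPM in the 11-, 15- and 17-day embryos, and from 126 (spleen) to 2396 (stomach) CPM with a median of 267 in the other adult tissues. Its nervous and embryo values overlapped, and both lay above every other adult value. The edgeR test gave log2 fold changes of 4.23 ± 0.79 (nervous, adjusted p = 0.00049) and 3.67 ± 0.78 (embryo, adjusted p = 0.0012), each ± SE. Its 5p partner was rarer, with 1054 CPM in brain, 790.1 in spinal cord and 165 in eye, and 347, 733 and 978 CPM in the 11-, 15- and 17-day embryos. It had log2 fold changes of 4.54 ± 0.65 (nervous, adjusted p = 6e-05) and 4.58 ± 0.65 (embryo, adjusted p = 4.7e-05).

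miR-434-3p followed with 6521 CPM in brain, 6804 in spinal cord and 1144 in eye. It had 1344, 2309 and 2833 CPM in the 11-, 15- and 17-day embryos, and ranged from 27.3 (kidney) to 423 (stomach) CPM with a median of 139 in the other adult tissues. Brain and spinal cord stood above all embryos and eye below them. The test gave log2 fold changes of 5.12 ± 0.71 (nervous, adjusted p = 4.7e-05) and 3.96 ± 0.70 (embryo, adjusted p = 0.00025). The direct comparison of embryo with nervous gave -1.16 ± 0.95 (adjusted p = 0.38). miR-434-5p, the rarer arm, had 1092 CPM in brain, 1075 in spinal cord and 225 in eye and 507, 961 and 1258 CPM in the 11-, 15- and 17-day embryos, so the 2 classes overlapped almost fully. Its difference was 0.19 ± 0.78 (adjusted p = 0.89), and it was negative without eye or without the 17-day embryo.

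Both arms of mir-136 were abundant. miR-136-3p had 2329 CPM in brain, 1541 in spinal cord and 404 in eye, and 761, 1909.8 and 2268 CPM in the 11-, 15- and 17-day embryos. miR-136-5p had 1533 CPM in brain, 769.8 in spinal cord and 303 in eye, and 408.8, 2137 and 2479 CPM in the 11-, 15- and 17-day embryos. The 11-day embryo was thus lower than the later stages in both arms. In the other adult tissues miR-136-3p ran from 23.5 (kidney) to 172 (salivary gland) CPM with a median of 70.1. The same tissues had miR-136-5p from 21.6 (kidney) to 211 (salivary gland) CPM with a median of 76.9. For miR-136-5p the test gave log2 fold changes of 3.30 ± 0.63 (nervous, adjusted p = 0.00059) and 4.25 ± 0.63 (embryo, adjusted p = 6.6e-05). Its embryo minus nervous difference was 0.95 ± 0.86 (adjusted p = 0.43). For miR-136-3p the values were 4.10 ± 0.57 (nervous, adjusted p = 4.7e-05) and 4.31 ± 0.57 (embryo, adjusted p = 2.8e-05). Embryo minus nervous was 0.21 ± 0.77 (adjusted p = 0.87) for this arm.

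miR-433-3p had 1717 CPM in brain, 1849 in spinal cord and 232 in eye, and 837, 1076 and 1121 CPM in the 11-, 15- and 17-day embryos. The remaining organs ran from 1.75 (spleen) to 104 (stomach) CPM with a median of 13.2. Its fold changes were large in both classes, with log2 fold changes of 5.68 ± 0.92 (nervous, adjusted p = 0.00017) and 5.35 ± 0.92 (embryo, adjusted p = 0.0002). Embryo and nervous values overlapped, with a difference of -0.32 ± 1.19 (adjusted p = 0.87) that was positive with library totals. The 5p arm was rare, with 68.6 CPM in brain, 93.1 in spinal cord and 12.4 in eye, and 39.1, 70.2 and 66.6 CPM in the 11-, 15- and 17-day embryos.

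The arms of mir-431 parted between embryo and nervous tissue. miR-431-5p had 1398, 2037 and 2409 CPM in the 11-, 15- and 17-day embryos, but 197 CPM in brain, 104 in spinal cord and 66.9 in eye. It ranged from 0 (testis) to 66.7 (stomach) CPM with a median of 13.7 in the other adult tissues. Every embryo lay above every nervous library, and the fit gave 3.99 ± 1.17 (adjusted p = 0.022) for embryo minus nervous. miR-431-3p, from the same hairpin, had 121, 135 and 197 CPM in the 11-, 15- and 17-day embryos, and 174 CPM in brain, 126.8 in spinal cord and 31.1 in eye. Here the classes overlapped, and the difference was 0.45 ± 1.26 (adjusted p = 0.83). Against the other adult tissues miR-431-5p had log2 fold changes of 2.52 ± 0.78 (nervous, adjusted p = 0.018) and 6.50 ± 0.83 (embryo, adjusted p = 1.9e-05). Without brain the nervous call of miR-431-5p was lost (1.99, adjusted p = 0.13), and without the 15-day embryo, the 17-day embryo, brain, eye or spinal cord its embryo minus nervous value of 3.70 to 4.42 had adjusted p = 0.052 to 0.083.

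The hairpins between Meg3 and Rtl1 had positive embryo minus nervous differences in all 10 tested names, and 5 of the 10 were called higher. Their median log2 difference was 2.59, beside 0.11 for the 10 names opposite Rtl1, of which 1 was called. Over all 27 tested names 6 were higher in embryos and 0 lower, at a background of 11.7% higher and 14.3% lower. In 11 of 27 every embryo lay above every nervous library, a separation that was not counted over all tested names. Of the later Rian and Mirg names, 9 of 66 were higher in embryos. The grouping by position was made with these values known and is a description.

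**Figure D3:**
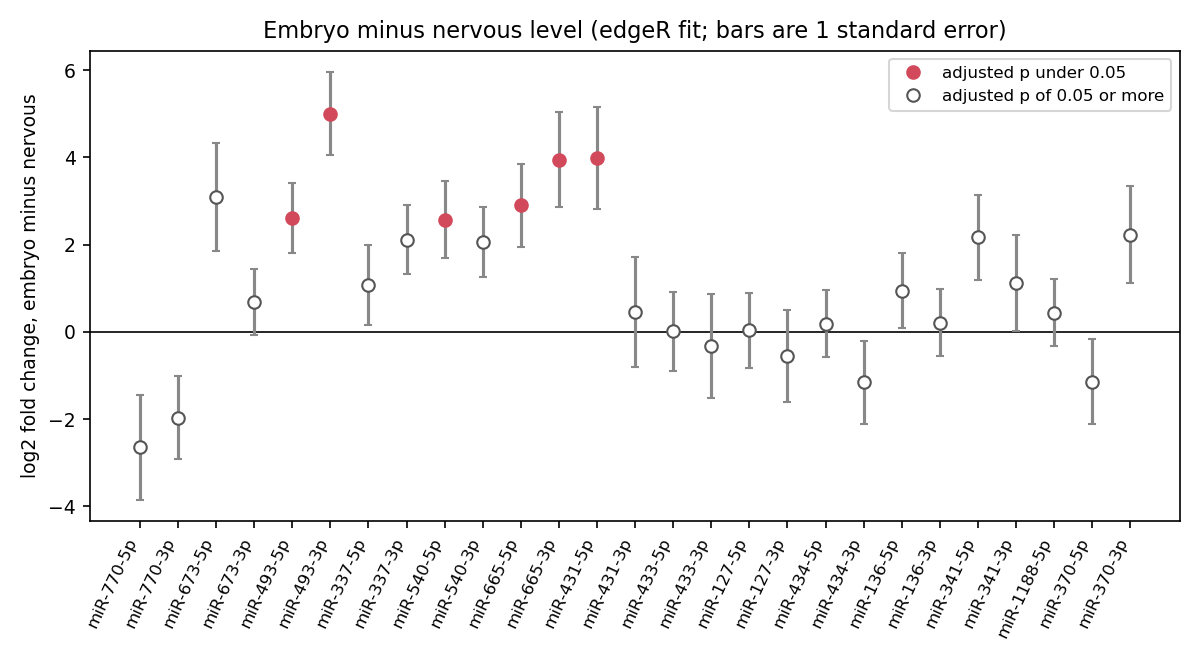
Log2 fold change of embryo minus nervous level (points; bars are 1 SE of the edgeR fit) for the 27 tested names in chromosome order, filled where the adjusted p was under 0.05. The 6 called names lie from miR-493 to miR-431-5p, and both arms of mir-770 lie below 0.

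miR-665-3p had 544.5, 891 and 1083 CPM in the 11-, 15- and 17-day embryos, against 90.7 CPM in brain, 56.5 in spinal cord and 15.8 in eye. Every nervous library lay below every embryo, and eye lay among the other adult tissues, which ran from 0.636 (kidney) to 25.7 (stomach) CPM with a median of 9.55. The embryo minus nervous difference was 3.95 ± 1.09 (adjusted p = 0.017), lost without eye (0.055) or spinal cord (0.064). Its nervous minus other adult value was 2.47 ± 0.74 (adjusted p = 0.014), lost without brain (0.14) or spinal cord (0.054). The 5p arm held 72 reads in all, and its difference of 2.90 ± 0.95 (adjusted p = 0.036) rested on at most 35 reads in a library. This call was lost in 6 of the 15 fits that left out 1 library, in DESeq2, without testis and smooth muscle together and without the filter on low counts.

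mir-493 was read mainly in embryos. miR-493-5p had 55.4, 114 and 85.1 CPM in the 11-, 15- and 17-day embryos, and 18.8 CPM in brain, 12.8 in spinal cord and 10.0 in eye. miR-493-3p had 12.7, 22.2 and 25.4 CPM in the 11-, 15- and 17-day embryos, and at most 0.840 CPM in a nervous library. The 5p arm ran from 0 (kidney) to 3.04 (smooth muscle) CPM with a median of 0.849 in the other adult tissues. For miR-493-3p the embryo minus nervous difference was 5.01 ± 0.95 (adjusted p = 0.0026), the largest of the tested names and the only one of the 6 calls kept in every alternative run. For miR-493-5p it was 2.60 ± 0.81 (adjusted p = 0.027), and leaving out brain, eye, spinal cord, the 15-day or the 17-day embryo each ended the call (adjusted p = 0.062 to 0.088), as did dropping the filter on low counts (0.10). miR-493-3p was not called between nervous and other adult tissue (1.34 ± 0.89, adjusted p = 0.23).

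miR-540-5p had 255, 563 and 534 CPM in the 11-, 15- and 17-day embryos, and 123 CPM in brain, 69.3 in spinal cord and 34.9 in eye. miR-540-3p had 193, 197 and 253 CPM in the 11-, 15- and 17-day embryos, and 73.6 CPM in brain, 50.8 in spinal cord and 29.2 in eye. Each embryo exceeded each nervous library in both arms. Elsewhere miR-540-5p ran from 3.44 (liver) to 32.5 (smooth muscle) CPM with a median of 10.1 in the other adult tissues. The difference was 2.57 ± 0.88 for miR-540-5p (adjusted p = 0.043) and 2.06 ± 0.80 for miR-540-3p (adjusted p = 0.067), which did not pass. miR-540-3p passed with library totals (2.93, adjusted p = 0.024), in DESeq2 (0.015) and with only embryo and nervous libraries in the fit (0.017). The call of miR-540-5p was lost when any 1 of the 6 embryo and nervous libraries was left out (adjusted p = 0.052 to 0.13) and without the filter on low counts (0.091). Its nervous call was lost without brain (1.67, adjusted p = 0.10).

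miR-337-3p had 566, 899 and 885 CPM in the 11-, 15- and 17-day embryos, and 273 CPM in brain, 163 in spinal cord and 106 in eye. The embryo values lay above the nervous ones, with 2.11 ± 0.79 (adjusted p = 0.059), just outside the threshold of 0.05. It passed with library totals, RLE factors, DESeq2 and with only embryo and nervous libraries in the fit. Its level ran from 5.09 (kidney) to 56.1 (heart) CPM with a median of 30.9 in the other adult tissues. miR-337-5p had 257, 385 and 408 CPM in the 11-, 15- and 17-day embryos, and 274 CPM in brain, 167 in spinal cord and 59.8 in eye, and overlapped between the classes (1.07 ± 0.92, adjusted p = 0.41).

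miR-673-5p varied between embryo stages, with 302, 163 and 761 CPM in the 11-, 15- and 17-day embryos. The 15-day value came from 669 reads. It had 93.5 CPM in brain, 27.7 in spinal cord and 22.9 in eye, and ran from 0 (spleen) to 25.7 (stomach) CPM with a median of 8.02 in the other adult tissues. Its 3p arm stayed at or below 23.6 CPM in every library. Embryo minus nervous was 3.09 ± 1.24 (adjusted p = 0.074). It passed with library totals (4.002, adjusted p = 0.043), in DESeq2 (0.017), with only embryo and nervous libraries (0.023) and without spleen (0.034). The log2 fold change of nervous minus other adult was 2.33 ± 0.88 (adjusted p = 0.044). This call held in 6 of 15 fits that left out 1 library, and the value was 1.38 without brain. It was also lost with only these 2 classes in the fit (adjusted p = 0.059) and when low counts were not filtered (0.054).

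mir-770, in the exon of Meg3, had the opposite order. miR-770-5p had 452 CPM in brain, 315 in spinal cord and 27.2 in eye, and 41.5, 42.4 and 42.6 CPM in the 11-, 15- and 17-day embryos. miR-770-3p had 227 CPM in brain, 238 in spinal cord and 19.6 in eye, and 31.7, 38.8 and 53.3 CPM in the 11-, 15- and 17-day embryos. Brain and spinal cord were far above all embryos, but eye lay below them, so the classes overlapped. The nervous minus other adult changes were 7.25 ± 0.96 and 7.29 ± 0.79 (adjusted p = 3.2e-05 and 1.7e-05). Embryo minus nervous was -2.65 ± 1.20 (adjusted p = 0.11) and -1.97 ± 0.95 (adjusted p = 0.14), neither of which passed. The value for miR-770-5p passed in DESeq2, with an adjusted p of 0.0499. Across the other adult tissues the 5p arm ran from 0 (heart) to 6.09 (smooth muscle) CPM with a median of 1.27.

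Among the hairpins in introns of Rian, mir-370 was read in embryos mostly as 3p. miR-370-3p had 691, 665.8 and 609 CPM in the 11-, 15- and 17-day embryos, and 258 CPM in brain, 108 in spinal cord and 55.0 in eye. miR-370-5p had 44.4, 37.8 and 41.9 CPM in the 11-, 15- and 17-day embryos, and 152 CPM in brain, 101 in spinal cord and 20.6 in eye. Each embryo exceeded each nervous library in the 3p arm, while in the 5p arm brain and spinal cord exceeded all embryos. The other adult tissues reached 21.8 CPM in the 3p arm, in stomach, and 5.07 CPM in the 5p arm, in smooth muscle. Neither arm passed the test of embryo minus nervous (2.22 ± 1.11, adjusted p = 0.15, and -1.14 ± 0.97, adjusted p = 0.40). miR-370-3p passed with only embryo and nervous libraries in the fit (2.25, adjusted p = 0.026).

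miR-341-3p had 408.8, 585 and 733 CPM in the 11-, 15- and 17-day embryos, and 474 CPM in brain, 254 in spinal cord and 62.1 in eye. It was called in both classes against the other adult tissues, with log2 fold changes of 4.32 ± 0.82 (nervous, adjusted p = 0.00057) and 5.44 ± 0.84 (embryo, adjusted p = 8e-05). miR-341-5p held 56 reads, none in an other adult library. A count of 0 over the pooled other adult libraries allows 3 reads. In unscaled CPM the pooled level of miR-341-5p was 4.76 times this floor in nervous (7 reads) and 41.4 times in embryo libraries (49 reads). Its nervous log2 fold change was 3.81 in edgeR and 2.10 in DESeq2, where the call was lost (adjusted p = 0.26). The edgeR call was lost without brain, spinal cord or any 1 embryo (adjusted p = 0.056 to 0.15). miR-1188-5p had 14.8, 13.4 and 14.4 CPM in the 11-, 15- and 17-day embryos, and 14.3 CPM in brain, 14.2 in spinal cord and 2.87 in eye, with no read in the 9 other adult libraries. Its pooled level in unscaled CPM was 66.0 times the same floor in nervous (97 reads) and 156 times in embryo libraries (185 reads). These ratios take the nervous and embryo counts as exact and pool different tissues, so they are not lower limits of a fold change. They were not computed on the TMM scale, where the embryo values are divided by 1.92 to 2.25.

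The 6 names that did not pass the filter were rare. miR-1188-3p had 10 reads, miR-3070-2-3p 17, miR-3070-3p 12, miR-3070-5p 8, miR-3071-5p 19 and miR-3071-3p 3, and none had a read in an other adult library. miR-3071-5p had 15 of its 19 reads in the 17-day embryo. miR-3070-2-3p was read only in spinal cord (10 reads) and brain (7 reads), while its near copy miR-3070-3p was read in 5 libraries. At these counts no difference between libraries was read.

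The make-up of the stretch differed between the classes. mir-127 held 33.1%, 35.1% and 41.6% of the reads of the 33 names in the 11-, 15- and 17-day embryos, and 51.3%, 53.5% and 55.2% in brain, spinal cord and eye. mir-431 held 11.5%, 9.24% and 8.36% in embryos but 1.12%, 0.771% and 1.52% in nervous libraries. For mir-665 the embryo shares were 4.14%, 3.81% and 3.49%, against at most 0.276% in nervous tissue. These shares do not depend on the scaling between libraries. mir-136 took its highest shares in spleen (32.9%), lung (30.0%) and salivary gland (26.0%), while mir-127 took 66.7% in stomach.

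**Figure D4:**
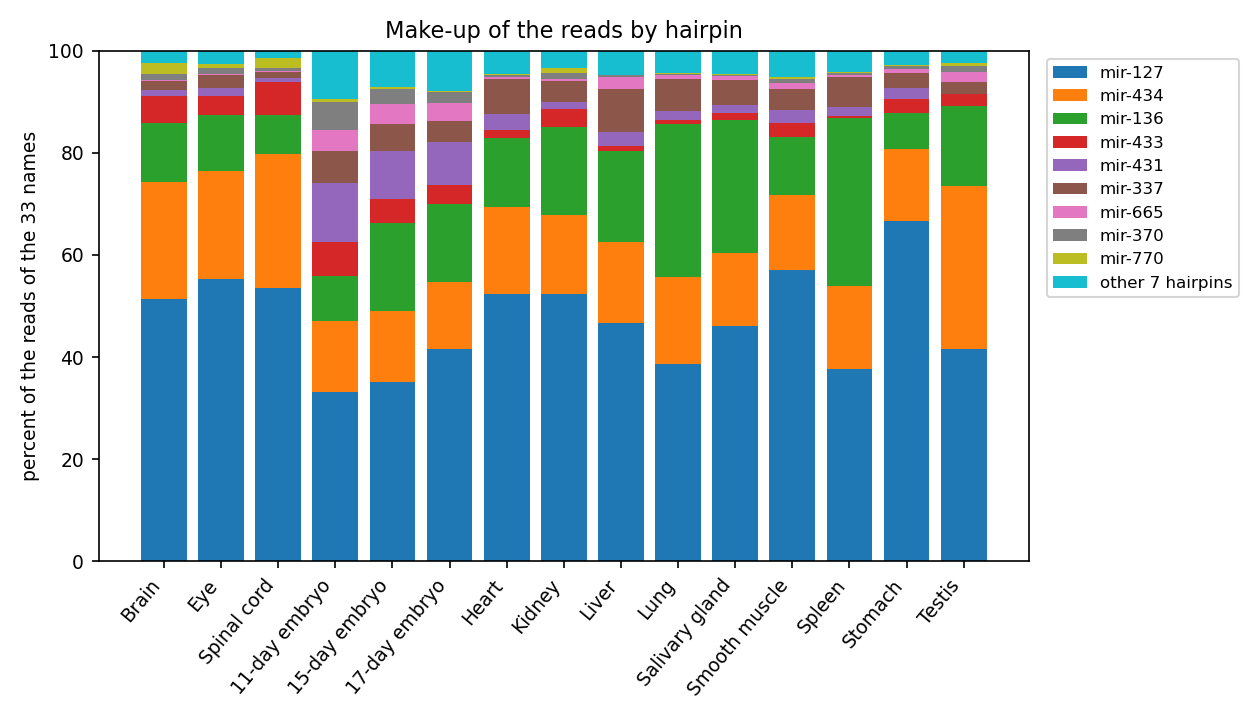
Stacked bars of the percent of reads of the 33 names held by each hairpin in 15 libraries; 7 hairpins (mir-341, mir-540, mir-673, mir-493, mir-1188, mir-3070 and mir-3071) are summed. mir-431 holds 8.36% to 11.5% in embryos and 0.771% to 1.52% in nervous libraries, and mir-136 reaches 32.9% in spleen.

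From the 11-day to the 17-day embryo the summed share of the stretch was higher at each later stage, with 1 library per stage and no test. The day of the 17-day library is that of its title, from which another field of its label differs. Unscaled miR-127-3p was 9051, 14421 and 25391 CPM and miR-136-5p 916.9, 4103 and 5247. miR-370-3p did not follow this, with 1549, 1278 and 1289.8, and neither did miR-770-5p with 93.0, 81.5 and 90.3. The hairpins thus differed in their course between stages. The neuronal marker list went from 8.46% to 4.70% and the mesenchymal list from 8.21% to 6.29% between the same libraries. Erythroid miRNAs went from 3.53% to 9.72%, muscle miRNAs from 0.424% to 2.36% and hepatocyte miRNAs from 0.108% to 1.26%. The part of these lists was not tested.

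The title of the series asks how the arm in use is switched. Arm usage was described by the 5p share, the 5p reads as a percent of the 5p and 3p reads of a hairpin, in libraries with at least 20 reads. Over all reads the 3p arm led in 8 of the 14 hairpins with at least 100 reads and the 5p arm in 6. The leading arm starts with U in 7 of the 14 and the other arm in 4. Shares stayed near 0% in the libraries with enough reads for mir-341 (at most 0.658% 5p in 9 libraries), mir-665 (at most 5.71% in 7, of which stomach was the only other adult tissue) and mir-433 (1.22% to 6.13% in 10). mir-1188 had 90.9% to 98.8% 5p in brain, spinal cord and the 3 embryos, and no read in the other adult tissues. mir-127 used its 3p arm throughout, with 2.66% 5p in stomach to 11.6% in testis. The remaining hairpins used both arms.

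**Figure D5:**
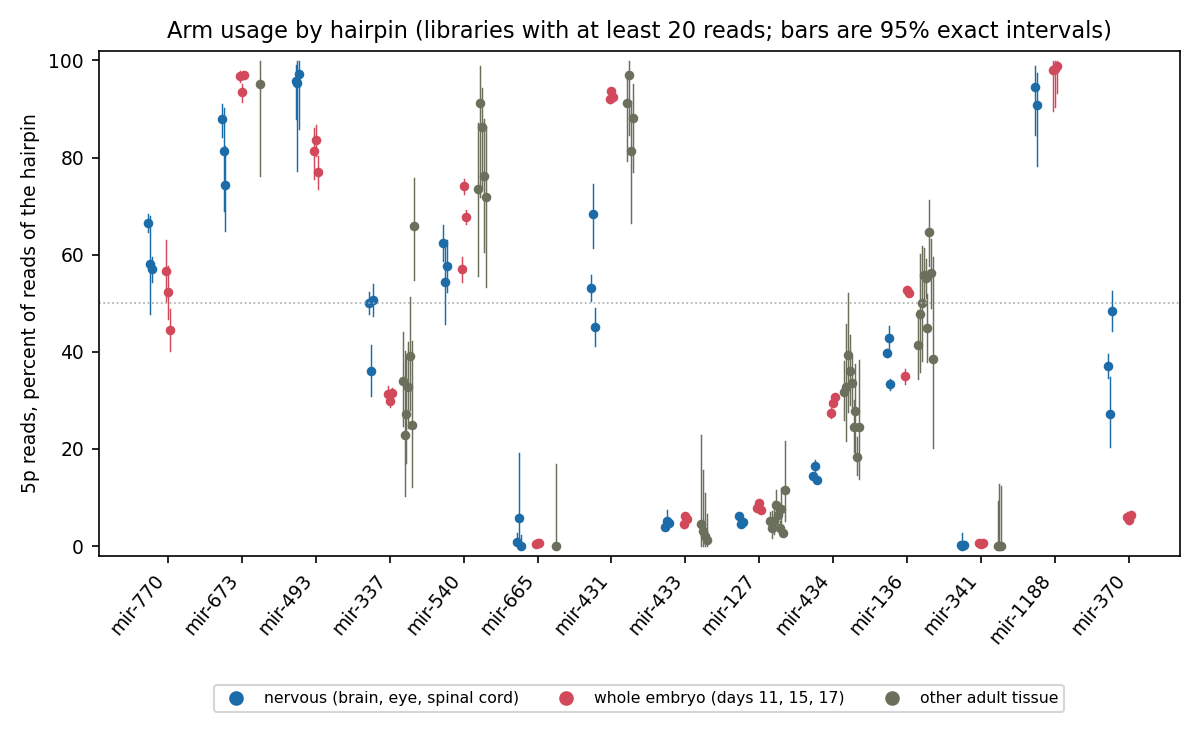
5p share (percent of the reads of a hairpin) in each library with at least 20 reads of that hairpin, with exact 95% intervals as bars, for 14 hairpins in chromosome order and coloured by class. mir-431 lies at 92.0% to 93.8% in embryos and at 45.2% to 68.3% in nervous libraries, and mir-370 at 5.37% to 6.44% against 27.2% to 48.4%.

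In mir-431 the arm that led was not the same in all libraries. The 5p share was 45.2% (41.3 to 49.1, 651 reads) in spinal cord, 53.2% (50.4 to 55.9, 1324 reads) in brain and 68.3% (61.4 to 74.6, 205 reads) in eye; brackets give exact 95% intervals. It was 92.0%, 93.8% and 92.4% in the embryos, and 97.1%, 91.3%, 88.1% and 81.4% in salivary gland, heart, stomach and smooth muscle, the 4 other adult tissues with enough reads. Spinal cord was the 1 library whose interval lay below 50%. The class means were 55.5% ± 11.7 (SD, n = 3), 92.8% ± 0.916 (SD, n = 3) and 89.5% ± 6.53 (SD, n = 4), in the order nervous, embryo and other adult.

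Across 238 hairpins, 8 of them from this stretch, edgeR tested the log2 odds of 5p against 3p between classes. In nervous tissue against other adult tissue 3 of the 8 were called, all toward 3p, at a background of 5.88% in either direction. These were mir-431 with -3.04 ± 0.46 (SE, adjusted p = 0.00013), mir-434 with -1.26 ± 0.29 (SE, adjusted p = 0.0079) and mir-540 with -1.31 ± 0.38 (SE, adjusted p = 0.032). In embryo against other adult tissue 0 of 8 were called by edgeR and 1 had an unadjusted p under 0.05, at a background of 19.7%, and limma called 0. Embryo against nervous tissue gave 2 calls of 8 at a background of 27.7%, mir-431 with 3.39 ± 0.42 (SE, adjusted p = 1.6e-06) and mir-434 with 1.25 ± 0.34 (SE, adjusted p = 0.0067). Of 21 tested hairpins of the later Rian and Mirg names, 1 was called toward 5p and 12 toward 3p in embryo against nervous tissue. Against other adult tissue, 1 of the 21 was called toward 5p and 0 toward 3p in nervous tissue, and 0 and 6 in embryos. The calls of mir-431 held in every alternative in which it could be tested. Without brain or without spinal cord the nervous calls fell to 1, since mir-434 then had adjusted p = 0.052 and 0.061 and mir-540 0.070 and 0.12. mir-540 was also lost without eye, lung or salivary gland (adjusted p = 0.071 to 0.091), with only these 2 classes in the fit (0.060) and with limma (-1.03, adjusted p = 0.35). limma also made 3 nervous calls, 2 of them shared with edgeR, and called mir-341 (-4.01, adjusted p = 0.036) in place of mir-540. mir-341 had no 5p read in any other adult library, so there its log2 ratio rests on the 0.5 added to each count. In nervous libraries its 5p share was at most 0.294%, so this call does not show a turn toward 3p.

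The 5p share of mir-434 was 14.3% in brain, 13.6% in spinal cord and 16.4% in eye. It was 27.4%, 29.4% and 30.7% in embryos. Other adult tissues ranged from 18.3% in stomach to 39.4% in liver, with a median of 31.8%. All nervous shares thus lay below all shares of the other classes, and the 3p arm led in every library. mir-540 was led by 5p, with 58.2% ± 4.03 (SD, n = 3) in nervous, 66.3% ± 8.66 (SD, n = 3) in embryo and 79.8% ± 8.51 (SD, n = 5) in other adult libraries.

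Hairpins too rare outside the nervous and embryo classes for that fit were tested with only these 6 libraries, over 248 hairpins. Of 13 hairpins of the stretch, 4 were called toward 5p and 3 toward 3p in embryos, at a background of 40.3% in either direction. mir-370 had the largest difference toward 3p, with -3.29 ± 0.32 (SE, adjusted p = 2.2e-07). Its 5p share was 48.4% (44.3 to 52.5, 589 reads) in spinal cord, 37.1% (34.6 to 39.6, 1463 reads) in brain and 27.2% (20.4 to 34.9, 158 reads) in eye, against 6.04%, 5.37% and 6.44% in embryos. The 6 libraries did not overlap by class. Outside them mir-370 had at most 19 reads in a library.

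mir-493 also turned toward 3p in embryos, with -2.47 ± 0.62 (SE, adjusted p = 0.0039). Its 5p share was 81.3%, 83.7% and 77.0% in embryos and 95.7%, 97.3% and 95.5% in brain, spinal cord and eye, the last 3 from 129 reads together. mir-673 turned toward 5p, with 2.37 ± 0.43 (SE, adjusted p = 0.00021) and shares of 96.9%, 93.4% and 97.0% in embryos against 87.9%, 74.3% and 81.4% in brain, spinal cord and eye. The smaller differences of mir-337 with -0.92 ± 0.28 (SE, adjusted p = 0.012) and mir-127 with 0.68 ± 0.25 (SE, adjusted p = 0.04) passed here and not with all 15 libraries, though mir-337 also passed when stomach was left out of those (adjusted p = 0.028). mir-431 and mir-434 were called again. mir-770 did not pass, with -0.59 ± 0.32 (SE, adjusted p = 0.15).

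mir-136 used both arms, with 47.0% 5p over all reads, and the leading arm differed between libraries. Its 5p share was 33.3% (32.2 to 34.5, 6506 reads) in spinal cord and 34.9% (33.4 to 36.4, 3950 reads) in the 11-day embryo. The 15- and 17-day embryos had 52.8% (52.0 to 53.6, 16593 reads) and 52.2% (51.6 to 52.8, 26377 reads). Brain had 39.7% and eye 42.8%, and the other adult tissues ranged from 38.5% in testis to 64.7% in spleen. No class comparison of mir-136 passed the test, with adjusted p = 0.14 (nervous minus other adult), 0.54 (embryo minus other adult) and 0.33 (embryo minus nervous). mir-337 ranged from 22.9% in liver to 65.9% in stomach, with 50.1% in brain, 50.7% in spinal cord, 36.0% (31.0 to 41.3, 347 reads) in eye and 31.2%, 30.0% and 31.6% in embryos. Eye thus lay nearer to the embryos than to brain and spinal cord. mir-770 had 66.6% in brain, 57.0% in spinal cord and 58.2% in eye, and 56.7%, 52.3% and 44.5% in the 11-, 15- and 17-day embryos, so the classes nearly met.

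Across the 15 libraries the 10 names most like miR-127-3p in log2 CPM, by Pearson r, all came from the same imprinted region. miR-329-5p (r = 0.986), miR-154-5p (0.984), miR-433-3p (0.983), miR-434-3p (0.982) and miR-300-3p (0.9802) led, and 4 of the 10 were names of the stretch and 6 of the later Rian and Mirg hairpins. The median r was 0.911 over 26 names of the stretch, 0.918 over 66 later names and -0.052 over 600 other names, whose highest was 0.928. Among names of the stretch r was lowest for miR-493-3p (0.629), miR-665-5p (0.634) and miR-341-5p (0.730), names with few reads outside embryos. The values share libraries, scaling and the contrast between classes, and they describe these 15 libraries.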

How the data were processed

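Per the labels' protocols, small RNA was selected by size from commercial total RNA, ligated to randomized adapters and sequenced on a MiSeq. The deposited values are raw read counts, 1 file per library and 1 line per mature miRNA. The tools bcl2fastq 1.8.4, cutadapt, BWA and bedtools and the build mm10 (the assembly GRCm38) are named per the submitters' processing notes. Options, the miRNA annotation and the use of strand were not given in the sources used here. A name missing from a file was set to 0 in that library.

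The members and all lists were chosen with earlier results of these data known. Abundance was tested with edgeR 4.0.16 (quasi-likelihood test) in R 4.3.3 after filterByExpr and TMM scaling, and arm usage with the same test on the counts of both arms, with library terms and an arm-by-class interaction, over hairpins that had 20 or more reads in 8 or more libraries. Both fits took in all 15 libraries, p-values were adjusted by Benjamini-Hochberg over all names or hairpins tested, and the threshold was 0.05. The SE is the log2 change divided by the root of F. Both scripts were tested on simulated data. CPM values are scaled by TMM over the reads left by the filter, which removed 13.1% of testis reads and at most 0.215% elsewhere. 5p shares have exact Clopper-Pearson 95% intervals, which cover counting error only, since PCR reads are not independent molecules. Hairpins with at least 100 reads were described one by one, and the 10 names most like miR-127-3p were named by Pearson r of log2 CPM (prior count 2). Alternatives were library totals, RLE factors, DESeq2 1.42.0, no filter, only the 2 classes compared, limma 3.58.1 on log2 arm ratios with 0.5 added to each count, a lower filter for arms (10 reads in 6 libraries), leaving out each library, and leaving out testis with smooth muscle. Sequences come from RefSeq (GRCm38.p6) and gene overlaps from GENCODE M21. The spike-in RNAs that the protocol describes were not used here.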

Additional observations from a re-analysis of the deposited data

Results flagged for a closer look

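In 33 series of values over the other adult tissues, 25 of levels, 7 of 5p shares and 1 of the summed share of reads, the highest or lowest library was compared with its nearest neighbour. In 3 of them 1 library lay far from the others. No rate by chance is given, since the series share libraries and some hold mostly values of 0. The 5p share of mir-337 in stomach was 65.9% (54.8 to 75.8, 85 reads), and the nearest of the 6 other tissues with at least 20 reads was smooth muscle with 39.2%. miR-433-5p in testis stood at 4.38 CPM beside 1.28 CPM in stomach, and the testis value is 1 read. miR-665-5p in smooth muscle stood at 1.015 CPM beside 0 in the other tissues, and this too is 1 read. A series with only 1 library above 0 is always flagged.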

How the results depend on the processing

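All 27 embryo and 20 of 25 nervous abundance calls against other adult tissues held in every alternative that gave them a value. Embryo minus nervous calls were fewer in most fits without 1 embryo or nervous library. The number of names called higher was 6, and it was 3 without the filter on low counts, 10 with only these 2 classes in the fit and 1 to 7 when 1 library was left out (lowest without spinal cord). DESeq2 called 1 name lower (miR-770-5p). Arm usage calls of nervous against other adult tissue went from 3 to 1 with only these 2 classes in the fit, where 5 hairpins could be tested, and ranged from 1 to 3 when 1 library was left out. Embryo against other adult tissue gave 1 call with a filter of 10 reads in 6 libraries, against 0. Embryo against nervous tissue gave 5 calls with that filter and 7 with only these classes, against 2. With only these classes 13 in place of 8 hairpins could be tested, and of the 5 added calls 3 (mir-370, mir-493 and mir-673) were not tested in the fit of all libraries, while mir-127 and mir-337 were.

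Uncalled values near 0 changed sign. In embryo minus nervous levels, library totals gave 0.23 for miR-127-3p and 0.45 for miR-433-3p. miR-433-5p was -0.0117 with RLE factors and with DESeq2, and -0.0129 without testis and smooth muscle. Leaving out 1 library gave -0.41 to 0.44 for miR-127-5p, -0.22 to 0.68 for miR-136-3p, -0.46 to 0.46 for miR-433-5p and -0.24 to 0.47 for miR-434-5p. In arm usage, limma gave mir-433 -0.66 in nervous and -0.42 in embryo minus other adult libraries. mir-431 in embryo minus other adult was -0.0633 without testis and smooth muscle and -0.0592 to 0.51 over single left-out libraries. The same range was -0.20 to 0.0697 for mir-127 (nervous minus other adult), -0.47 to 0.0601 for mir-136 and -0.14 to 0.0563 for mir-434 (embryo minus other adult). The cause of these changes was not tested. No paired analysis was possible because the labels give 1 library per tissue and no replicate numbers. Depth limits testis most, where 3 reads stood for 20.3 CPM.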
